A study of Mus musculus with 16 samples.

Results

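Promoters with H3K4me3 and little H3K27me3 were studied in haploid spermatids of mice. A promoter was taken as the window from 1 kb before to 1 kb after the start of an autosomal protein-coding gene, with 1 start for each gene. For each mark the distinct fragments of both wild-type (WT) libraries were pooled, and the fragments with their midpoint in a window were divided by the number that a window of 2000 bp would hold at the genome average, which gives the fold used throughout. Windows with an H3K4me3 fold of at least 5 and an H3K27me3 fold under 3 were kept, which were 8621 of 20807 windows (41.4%). By the same limits the remaining windows carried both marks (1197), H3K27me3 with an H3K4me3 fold under 5 (4544) or neither (6445). The members were thus chosen by the WT levels of H3K4me3 and H3K27me3, which are given as a description, whereas the knockout (KO) libraries, H3K9me3, the IgG control and the fragment lengths were not used in the choice.

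H3K4me3 is a methylation of histone H3 that is deposited around the starts of active genes, largely by complexes that recognize unmethylated CpG-rich DNA. H3K27me3 is the mark of Polycomb repression, and in germ cells many developmental genes carry it. Haploid spermatids still transcribe the genes of the sperm head and tail before histones are replaced by protamines and transcription ends. H2A.B is a short variant of histone H2A made in the testis, whose nucleosomes wrap less DNA than those with core H2A.

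The series held 16 libraries, made by AutoCUT&RUN, in which an antibody tethers micrococcal nuclease to chromatin and the released fragments are sequenced from both ends. Each of H3K4me3, H3K27me3, H3K9me3 and a nonspecific IgG was profiled in 2 KO and 2 WT libraries. The KO males were hemizygous for CRISPR/Cas9 mutations in all 3 X-linked H2A.B genes (H2afb1, H2afb2 and H2afb3), from 1 line backcrossed to C57BL/6J, and the WT males carried none of them. The mice were 2 months old, and live haploid cells had been sorted by Hoechst and propidium iodide. Each KO was matched with a WT sibling, taken here to be the one with the same replicate number. The libraries held 140181 to 3963850 distinct autosomal fragments, the fewest in IgG (140181 to 236269), and the second WT H3K27me3 library held only 196218 against 685026 to 3773436 in the others of that mark. Of 7 spermatid markers, 5 (Acrv1, Prm2, Spaca1, Tnp2 and Tssk6) were among the promoters, Tnp1 carried both marks and Prm1, a protamine gene, reached a fold of only 2.24. No marker of Sertoli cells (0 of 11), Leydig cells (0 of 9) or myoid, vascular and immune cells (0 of 11) was among them, although the Sertoli gene Inha carried both marks, and 8 of 21 spermatogonial markers had an H3K4me3 fold of at least 5, 5 of them with both marks.

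A set of 5 promoters of different kinds show the sequences behind these windows. Each is given as the 250 bases before the annotated start in RefSeq (build GRCm38.p6), 5′ to 3′ on the strand of the gene, with every CG dinucleotide in capitals. Uqcrh encodes a subunit of respiratory complex III and Psmd8 a subunit of the proteasome cap, both used by nearly every cell. Tssk1 encodes a testis-specific kinase, Akap3 an anchoring protein of the sperm fibrous sheath, and Olfr701 an odorant receptor.
Uqcrh, chr4:116075071-116075320, minus strand: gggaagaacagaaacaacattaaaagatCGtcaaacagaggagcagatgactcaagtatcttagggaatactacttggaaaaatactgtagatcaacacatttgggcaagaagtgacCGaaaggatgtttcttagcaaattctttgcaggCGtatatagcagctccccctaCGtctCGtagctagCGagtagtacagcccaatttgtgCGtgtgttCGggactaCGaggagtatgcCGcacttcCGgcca
Psmd8, chr7:29180674-29180923, minus strand: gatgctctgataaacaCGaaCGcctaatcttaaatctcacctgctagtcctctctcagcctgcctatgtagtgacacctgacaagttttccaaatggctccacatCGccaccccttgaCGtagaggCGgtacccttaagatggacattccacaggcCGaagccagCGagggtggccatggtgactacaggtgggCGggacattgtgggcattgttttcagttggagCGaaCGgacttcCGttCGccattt
Tssk1, chr16:17893953-17894202, plus strand: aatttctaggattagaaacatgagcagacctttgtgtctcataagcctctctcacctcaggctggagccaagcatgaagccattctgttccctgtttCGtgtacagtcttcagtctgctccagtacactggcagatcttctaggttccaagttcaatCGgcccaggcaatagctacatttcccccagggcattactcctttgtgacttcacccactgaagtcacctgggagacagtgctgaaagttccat
Akap3, chr6:126852848-126853097, plus strand: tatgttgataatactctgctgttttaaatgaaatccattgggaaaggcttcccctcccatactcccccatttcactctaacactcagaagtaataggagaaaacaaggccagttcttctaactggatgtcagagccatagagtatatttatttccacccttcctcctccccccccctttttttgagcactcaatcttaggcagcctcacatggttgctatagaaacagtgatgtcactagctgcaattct
Olfr701, chr7:106813879-106814128, plus strand: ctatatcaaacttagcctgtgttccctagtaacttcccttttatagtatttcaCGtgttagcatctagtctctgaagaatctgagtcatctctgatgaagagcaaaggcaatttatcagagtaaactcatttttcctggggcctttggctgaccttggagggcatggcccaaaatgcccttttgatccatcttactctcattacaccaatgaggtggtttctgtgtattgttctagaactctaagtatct
The Uqcrh sequence held 11 CG dinucleotides and the Psmd8 sequence 12. The Tssk1 sequence held 2, that of Olfr701 held 1 and that of Akap3 held 0. The pooled WT H3K4me3 folds of the windows were 40.2 for Uqcrh, 38.9 for Psmd8, 42 for Tssk1, 39.3 for Akap3 and 31.3 for Olfr701.

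Genes used by every cell were nearly all among the promoters. All 37 genes of RNA polymerase II and its general factors were members, as were 31 of 32 proteasome genes, 40 of 43 windows of respiratory chain genes (1 gene symbol having 2 windows) and 68 of 75 ribosomal protein genes, against 41.4% of all windows. Together these 4 ubiquitous lists gave 176 of 187 windows, with a median WT H3K4me3 fold of 19.7 against 3.58 over all windows. For Psmd8 the H3K4me3 folds were 26 and 43.3 in WT and 49.3 and 39.6 in KO, and for Uqcrh 31.3 and 43.3 in WT and 38.5 and 41.1 in KO, so the groups overlapped at both genes. The first WT value rested on 15 fragments at Psmd8 and 18 at Uqcrh, so folds of single promoters carry a large counting error. Gtf2f1, a subunit of the general factor TFIIF, had folds of 29.5 and 39.1 in WT and 37.5 and 42.7 in KO.

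Genes on lists of spermatid functions were members almost as often, and whether the listed genes are used only in spermatids was not tested. The lists for nuclear condensation (12 of 15), acrosome and fusion (22 of 26), flagellum (27 of 31), the CatSper calcium channel of the sperm tail (9 of 11), spermatid kinases and isozymes (19 of 20) and spermatid transcription factors (11 of 14) gave 99 of 116 genes together. Acr, the gene of the acrosomal protease acrosin, had folds of 36.5 and 39.7 in WT and 43.4 and 46.5 in KO. Tssk1 had folds of 27.8 and 47 in WT and 44.4 and 48 in KO, and Pgk2, a testis isozyme of phosphoglycerate kinase, had 27.8 and 42.1 in WT and 43.4 and 38.5 in KO. At Acr both KO libraries stood above both WT libraries, as they did at 2510 members (29.1%) and at 26.6% of the 11948 windows with at least 10 fragments, while the groups overlapped at Tssk1 and Pgk2. Akap3 had folds of 38.2 and 39.7 in WT and 31.6 and 46.9 in KO, and Catsper2, an ion-conducting subunit of the channel, had 31.3 and 42.1 in WT and 41.4 and 34.7 in KO. Crem, a transcriptional regulator of postmeiotic genes, had folds of 26 and 30.1 in WT and 29.6 and 45.3 in KO. Hist1h2ba and Hist1h2aa, the genes of the testis variants of H2B and H2A, start on opposite strands and have overlapping windows, with folds of 29.5 and 31.3 in WT and 35.5 and 38.1 in KO for Hist1h2ba. The transition protein gene Tnp1 was outside the rule because its H3K27me3 fold was 10.9, at an H3K4me3 fold of 14.3.

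Genes of meiotic prophase and of the piRNA pathway were also mostly members, whereas genes of spermatogonia were not. The meiotic prophase list gave 34 members of 39 and the piRNA pathway list 16 of 20. Syce3, a protein of the synaptonemal complex, had folds of 22.6 and 37.3 in WT and 46.4 and 46.9 in KO. Gtsf1, a partner of PIWI proteins, had folds of 46.9 and 46.4 in WT and 42.4 and 49.1 in KO. Piwil1, the PIWI protein of pachytene cells, was not a member, with an H3K4me3 fold of 1.34 and an H3K27me3 fold of 2.41 at the start used. Of 21 spermatogonial genes only Dazl, Foxo1 and Id4 were members, and the list had a median WT H3K27me3 fold of 24.9. Chromatin regulators were split, with 17 of 19 genes of the H3K4 methylation machinery but 19 of 30 Polycomb genes among the members. Kmt2a, an H3K4 methyltransferase, was a non-member with an H3K27me3 fold of 53.5.

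Developmental and receptor genes were nearly absent. None of 63 lineage regulators, 39 Hox genes or 110 keratin genes was a member, with median WT H3K27me3 folds of 51.9, 52.3 and 0.804. Only 13 of 1087 olfactory receptor genes (1.2%) and 5 of 326 vomeronasal receptor genes (1.53%) were members. Olfr701 had H3K4me3 folds of 36.5 and 29.5 in WT and 28.6 and 22.9 in KO, and Olfr180 had 29.5 and 25.9 in WT and 30.6 and 28.9 in KO. Vmn2r7, a vomeronasal receptor gene, had folds of 22.6 and 19.3 in WT and 22.7 and 30.1 in KO. These 3 receptor promoters had a fold of at least 19.3 in each H3K4me3 library. Of 385 genes named Zfp, which encode zinc finger proteins, 213 (55.3%) were members, led by Zfp78 with a WT fold of 42.9.

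**Figure D1:**
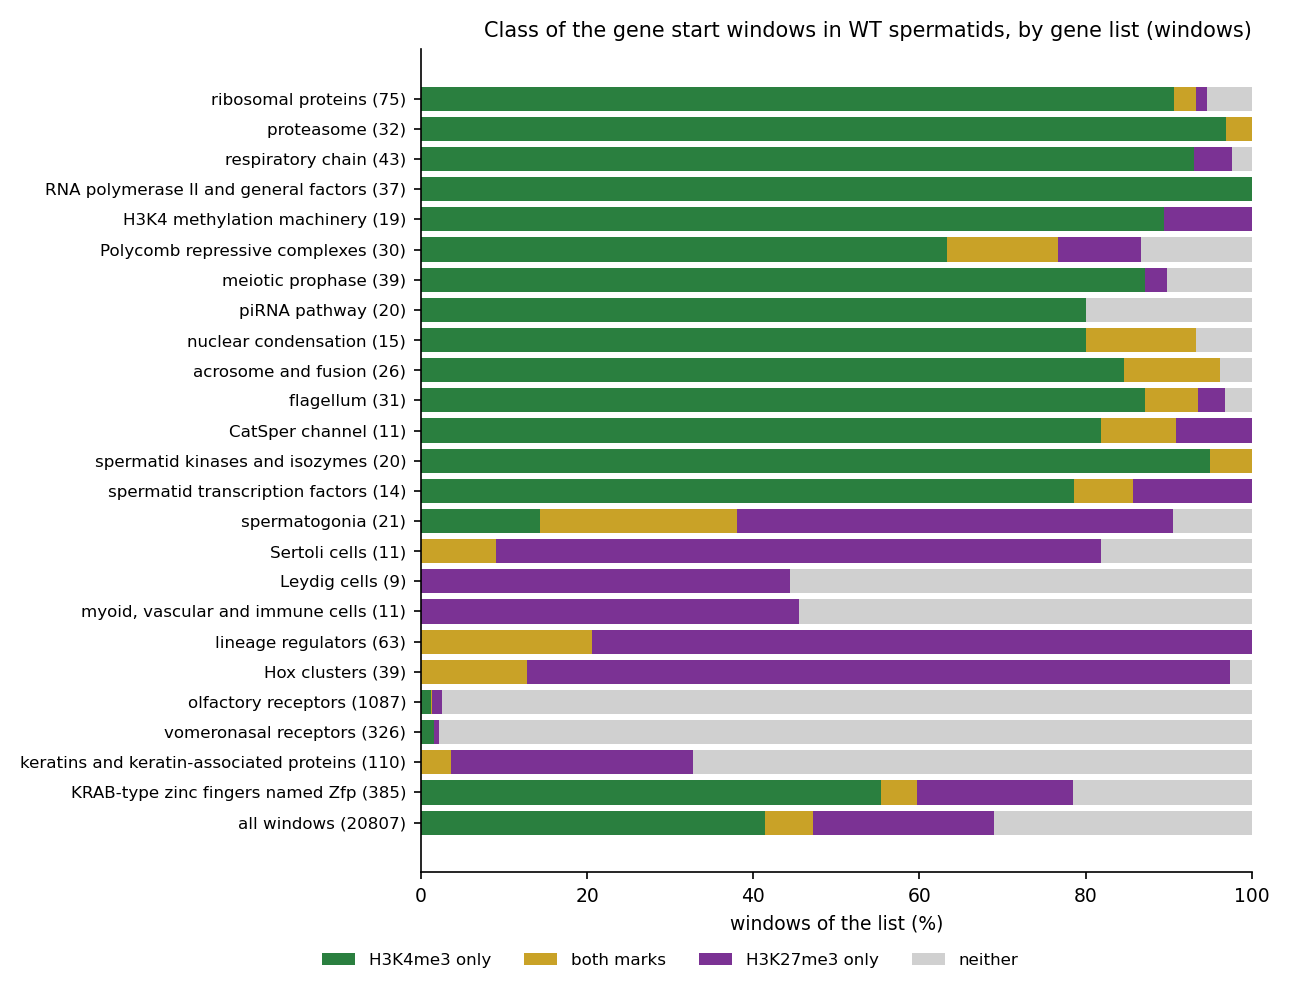
Share of each gene list, in percent of its windows, that had H3K4me3 only, both marks, H3K27me3 with an H3K4me3 fold under 5, or neither, from the pooled WT libraries. All 37 polymerase genes fall in the first class, against 13 of 1087 olfactory receptor genes.

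The WT fold of the members ran from 5.36 to 254, with a median of 19.7 and quartiles of 13.4 and 25.9. Most of the highest values were at genes with Gm, Speer or Rik names. Their copy number and any exchange of reads between near-identical copies were not tested, so the level of a single gene is uncertain. Of the 48 members with a fold of at least 60, 44 bore names beginning with Gm or Speer or ending in Rik, 24 lay on chromosome 5, 13 on chromosome 14 and 5 on chromosome 8, and 0 were CpG-rich. Gm10354, on chromosome 5, led with folds of 307 and 235 in WT and 330 and 185 in KO, and its pooled WT folds were 36 for H3K9me3 and 13.1 for IgG. Gm15319, on chromosome 8, had 330 and 185 in WT and 270 and 182 in KO. 4931408C20Rik, on chromosome 1, had 52.1 and 139 in WT and 110 and 152 in KO, at an H3K9me3 fold of 1.07. Among all members Sfi1 had the highest pooled WT H3K9me3 fold, 409, followed by Gm10354 and by Mroh2a at 35.7.

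At the thresholds, 93 windows held 12 pooled WT H3K4me3 fragments (fold 5.36, such as Uxs1 and Cyp20a1) and were inside, and 85 held 11 (fold 4.92, such as Mapkapk2 and Ddx59) and were outside. For H3K27me3, 77 windows held 7 fragments (fold 2.81, such as Chpf and Nelfb) and 64 held 8 (fold 3.22, such as Prss39 and Sgpp2). The genome average was 2.24 H3K4me3 and 2.49 H3K27me3 fragments per window, so that the rule on H3K27me3 rested on few fragments. No H3K27me3 fragment was seen in 4656 members (54%) in the pooled WT libraries.

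The sequence of the promoters was not used in the choice. A promoter was called CpG-rich when the 1000 bases around its start had at least 50% G and C and a ratio of observed to chance CpG of at least 0.6. CpG-rich promoters made up 6306 members (73.1%), against 45.7% of all windows, 58.1% of the 1182 windows with both marks and an IgG fold under 50, and 7.39% of windows with neither, and the median CpG ratio was 0.75 in members and 0.169 in windows with neither mark. Conversely, 66.3% of CpG-rich windows and 20.5% of the others were members. The 176 members of the ubiquitous lists were CpG-rich in 88.1% and the 99 of the spermatid lists in 33.3%, with median CpG ratios of 0.786 and 0.424. Their median WT H3K4me3 folds were 20.1 and 22.8, a comparison of levels that the choice of members shaped and that was not tested. Within the spermatid lists the share was lowest in kinases and isozymes (15.8%) and highest in transcription factors (81.8%). A second gene started on the opposite strand within 1 kb upstream at 14.5% of members and 1.67% of the other windows. The share of windows that were members ran from 32.9% on chromosome 7 to 52.3% on chromosome 12.

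**Figure D2:**
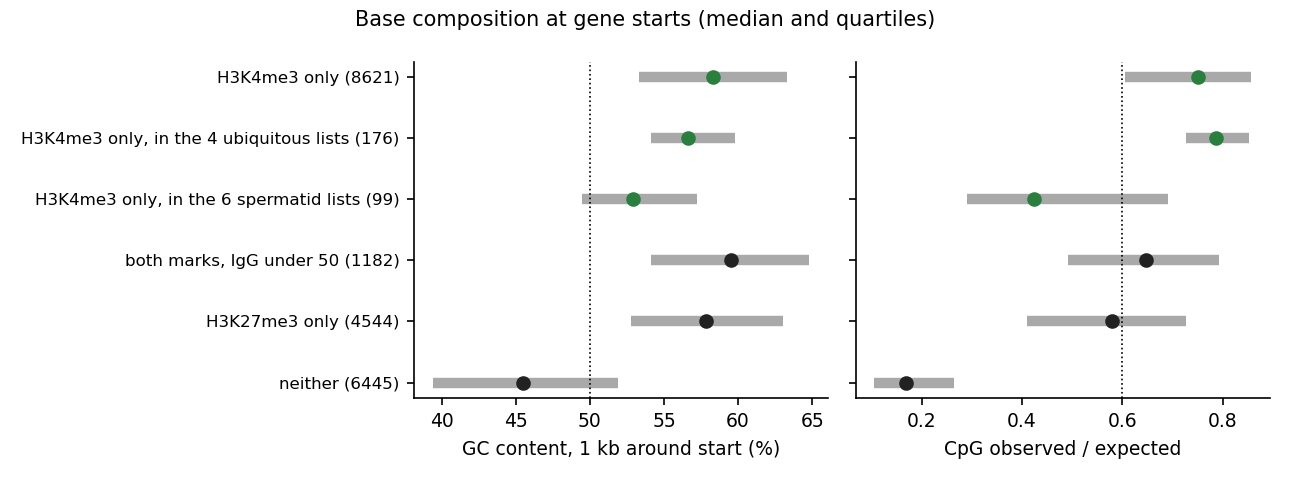
Composition of the promoters by class of mark, from the reference sequence around each start. Members were CpG-rich in 73.1%, and the members of the spermatid lists in 33.3%.

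Short motifs were counted on both strands in the 300 bases from 250 before to 50 after each start, for 8619 of the members and 20802 of all windows. The GC box GGGCGG was found in 58.8% of members and 43.7% of all promoters, and in 59.5% of those with both marks and 53.6% of those with H3K27me3 only. The ETS motif CCGGAAG, which is present in the Uqcrh sequence above, was found in 21.3% of members and 11% of all promoters, and in 30.7% of ubiquitous-list against 4.04% of spermatid-list members. The NRF1 core GCATGC was found in 10.8% of members and 8.04% of all promoters. The letters CCAAT were nearly as common in members (40.2%) as in all promoters (38.6%), and TATAAA was found in 6.57% against 12.7%. TGACGT, the core of the cyclic AMP response element bound by CREM, was found in 13.4% against 8.63%, and these counts include the full TGACGTCA, found in 4.2% against 2.43%. In the spermatid lists TGACGT was found in 10.1% of members and the full element in 0 of 99, against 15.3% and 4.55% in the ubiquitous lists. Members had a median of 20 CG dinucleotides in these bases, against 12 over all promoters, 21 in ubiquitous-list and 9 in spermatid-list members. These are matches of letters, and members differ from other windows in CG content, whose part in the motif shares was not tested.

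In KO spermatids nearly all of these promoters kept the mark. The pooled KO H3K4me3 fold was at least 5 at 8498 members (98.6%), against 47.7% of all windows, and the share was 97.9% and 97.6% in the separate KO libraries. An H3K27me3 fold of at least 3 was reached in the pooled KO libraries at 96 members (1.11%), against 27.4% of all windows, and both parts of the rule were met in KO at 8407 (97.5%). Sfi1 had the highest KO H3K27me3 fold among members, at 6.9, followed by Stk10 at 5.79 and Hist1h4i at 5.52. Their WT folds of 2.81, 2.41 and 2.81 were just under the limit of 3. The Sfi1 window also had H3K9me3 folds of 409 in WT and 491 in KO. The Stk10 window overlaps that of Efcab9, which had a WT H3K27me3 fold of 6.03 and an H3K4me3 fold of 4.92, just under the limit of 5. The mean H3K4me3 fold over members was 25.1 and 22.4 in the KO and 20 and 20.9 in the WT libraries, and the KO libraries were higher in both pairs. The members of the spermatid lists had median folds of 28 in pooled KO and 22.8 in pooled WT, those of the ubiquitous lists 22.3 and 20.1, and all members 22 and 19.7. Since WT levels chose the members, these differences are a description, and in sorted bulk cells a different mix of cells and a different level per cell cannot be told apart.

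Window by window, limma called no member for any mark between KO and WT at an adjusted p of 0.05. For H3K4me3 and H3K27me3 the fit used the WT fragments that also chose the members, so its counts are a description of the members and no test of them. For H3K4me3, 0 of 8621 members were called, against 0% of the 11948 windows tested, and 269 members had an unadjusted p under 0.05, against 375 of all windows tested. The median change was 0.16 on the log2 scale at members and 0.15 over all tested windows. For H3K27me3, 0 of 360 tested members were called (0% of 6491 windows), with an unadjusted p under 0.05 at 8 members and 148 windows in all, and for H3K9me3, 0 of 477 (0% of 3206), with 7 members and 51 windows in all. The limma-trend method also called 0 members for each mark. Without the second WT replicate, which left 1 WT library, 7 of 11395 windows (0.0614%) were called for H3K4me3, all lower in KO, of which 2 were members, Gm12888 and Gm21897, named after their values were seen, and 5 carried both marks.

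Levels of the other antibodies at these promoters were below the genome average for H3K27me3 and H3K9me3 and above it for IgG. The mean H3K27me3 fold was 0.333 and 0.557 in WT, which the rule fixed to be low, and 0.381 and 0.624 in KO. The mean H3K9me3 fold was 0.467 and 0.567 in WT and 0.482 and 0.594 in KO, with a KO minus WT difference of 0.021 (exact permutation test, two-sided p = 0.667). The Sfi1 window alone held 1374 of 12318 and 921 of 12461 member H3K9me3 fragments in WT. In KO it held 1745 of 13391 and 1170 of 13921. Its part in this difference and in the H3K9me3 fragment lengths at members was not tested. The pooled WT H3K9me3 fold reached 5 at 154 members (1.79%), against 2.35% of all windows. In IgG, a control for cleavage without a specific antibody, the mean fold was 1.74 and 1.03 in WT and 1.78 and 1.45 in KO, a difference of 0.23 (exact permutation test, two-sided p = 0.667).

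Against the other windows, the mean H3K9me3 level of members was lower by a log2 ratio of -4.52 (exact sign-flip permutation test over 4 libraries, p = 0.125, the smallest it can give). The IgG level was likewise lower, by -2.43 (p = 0.125, exact permutation test), but by only -0.54 when every deposited fragment was counted (exact permutation p = 0.25). These values rested on 16 windows with an IgG fold of at least 50, of which 0 were members and 15 carried both marks, 12 of them predicted Gm genes with IgG folds of 3842 to 18608. Each of the 16 had a WT H3K27me3 fold of at least 3.22, so the rule itself kept them out of the members. Both ratios with their p-values are therefore a description and no independent test of these antibodies. Without the 16 windows, a choice made after seeing the data, the H3K9me3 ratio was -0.66 and the IgG ratio 1.15, a description with no test, since the windows were left out for their IgG level and none was a member. The mean IgG fold of members also went with their H3K4me3 level, from 0.75 at WT folds of 5 to 10 (1146 members) and 1.06 at 10 to 20 (3212) to 1.97 at 20 to 40 (4000) and 4.11 at 40 or more (263). Its part in the H3K4me3 levels was not tested.

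Fragment lengths differed between KO and WT at these promoters. Fragments of at most 120 bp are shorter than a nucleosome and are called small (sub-nucleosomal), and those of at least 150 bp, which can hold a whole nucleosome, are called large. Of H3K4me3 fragments in member windows, 40.1% and 36.5% were small in KO and 29.9% and 23.4% in WT. The 95% Wilson intervals, which cover counting error only, were 39.9 to 40.3, 36.4 to 36.6, 29.6 to 30.1 and 23.3 to 23.6%. In sums over members a fragment in more than 1 member window was counted in each. Since 2299 member windows overlap another window, these intervals are too narrow. Both KO libraries were thus above both WT libraries, with 0.686 ± 0.0509 small fragments per large fragment in KO and 0.397 ± 0.0834 in WT (SD, n = 2). On the log2 scale the ratio was -0.47 and -0.62 in KO and -1.13 and -1.56 in WT. The difference of 0.80 was larger than the SD between replicates of 0.23, and it was 0.66 in the first and 0.94 in the second sibling pair. The exact permutation test gave a two-sided p = 0.333, the smallest that 2 libraries against 2 allow.

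The same ratio was higher in KO for each of the other antibodies within both sibling pairs. The first pair differed by 0.73 in H3K27me3, by 0.56 in H3K9me3 and by 0.59 in IgG, and the second by 0.43, 0.44 and 0.21. For H3K27me3 the log2 ratio was -0.82 and -0.02 in KO and -1.55 and -0.44 in WT, a difference of 0.58 with an SD between replicates of 0.68 (exact permutation p = 0.667). For H3K9me3 it was -1.94 and -0.88 in KO and -2.49 and -1.32 in WT, a difference of 0.50 with an SD of 0.79 (exact permutation p = 0.667). For both marks the groups overlapped, the first replicate of each genotype being lower than the second, and the SD, which ignores the pairs, holds this difference. In IgG the log2 ratio was 0.52 and 0.15 in KO and -0.06 and -0.06 in WT, a difference of 0.40 with an SD of 0.19 (exact permutation p = 0.333), which was 0.21 without the first replicates and 0.65 when every deposited fragment was counted. The IgG libraries, which hold 1013 to 2947 fragments in member windows, therefore moved at members in the same direction as H3K4me3, and the part of this in the H3K4me3 difference was not tested. Over all autosomal fragments the IgG difference was 0.43. At the other windows with an IgG fold under 50 it was 0.08, with -0.32 in the first and 0.48 in the second pair.

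**Figure D3:**
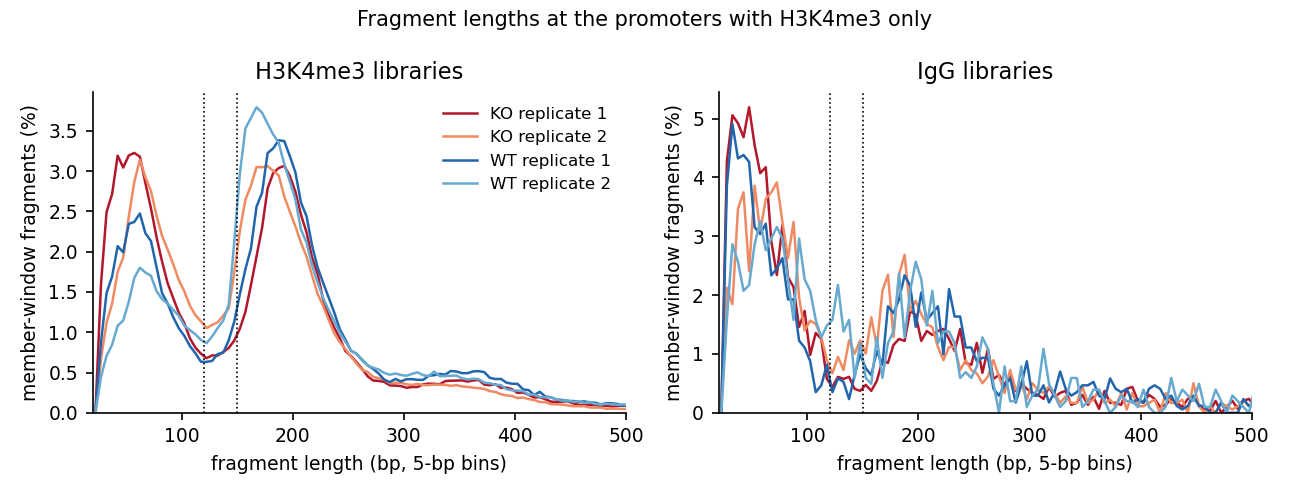
Length distribution of distinct H3K4me3 fragments in the member windows, in percent of each library's fragments by length in bp, for 2 KO and 2 WT libraries. The share of at most 80 bp is 30.6 and 23.8% in KO and 21.8 and 14.3% in WT, and the nucleosomal mode goes with the replicate number.

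For H3K4me3 the length of the nucleosomal fragments went with the replicate number and not with the genotype. Same-numbered libraries were taken as siblings and also share a code in their titles, and these cannot be told apart. The most frequent H3K4me3 length between 120 and 250 bp was 187 (KO) and 190 bp (WT) in the first replicates, and 171 (KO) and 169 bp (WT) in the second. The difference between genotypes was -0.5 bp (exact permutation p = 1), and its sign turned with the window used, from 8 bp in windows of 500 bp either side to 1 bp in windows that overlap no other. For H3K27me3 the most frequent length did not follow the replicate number, with 194 and 181 bp in KO and 184 and 187 bp in WT, nor did that of IgG, with 196 and 185 bp in KO and 187 and 197 bp in WT. For H3K9me3 it was 180 and 168 bp in KO and 176 and 173 bp in WT. The most frequent H3K4me3 length among small fragments was 57 bp in both first replicates and 62 bp in both second replicates. Fragments of at least 300 bp, long enough for more than 1 nucleosome, made up 11.6 and 8.75% in KO and 14.9 and 13.3% in WT.

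The difference in small fragments was of like size in other windows and over all autosomal fragments, where it was 0.86 for H3K4me3. At windows with neither mark it was 0.89. Windows that were not members had a KO minus WT log2 difference of 0.74 for H3K4me3, and the excess at members was 0.0573 (exact permutation p = 0.667). Without the 16 windows of high IgG the other windows gave 0.84 and the excess was -0.0403 (exact permutation p = 0.667), so its sign depended on them. Within the members, the difference was 0.80 at CpG-rich and 0.81 at other promoters, 0.76 at promoters with a divergent start, 0.81 in the ubiquitous lists and 0.74 in the spermatid lists. The level of the ratio itself was higher at members than at windows with both marks in all 4 H3K4me3 libraries, by a mean log2 difference of 0.46 (exact sign-flip permutation p = 0.125, the smallest it can give). It was higher by 0.34 without the windows of high IgG, and by 0.27 when every deposited fragment was counted. The rule split these classes and kept the windows of high IgG out of the members. The p-value is therefore a description and no independent test. Windows with both marks and an IgG fold under 50 had ratios of -0.85 and -0.91 in KO and -1.54 and -1.86 in WT. Their median WT H3K4me3 fold was 10.3, against 19.7 in members. Among members the ratio was lowest at WT folds of 5 to 10, with -0.84 and -1.01 in KO and -1.50 and -2.09 in WT, and highest at folds of 20 to 40, with -0.39 and -0.55 in KO and -1.01 and -1.46 in WT. The part of the H3K4me3 level in the difference between the classes was not tested.

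**Figure D4:**
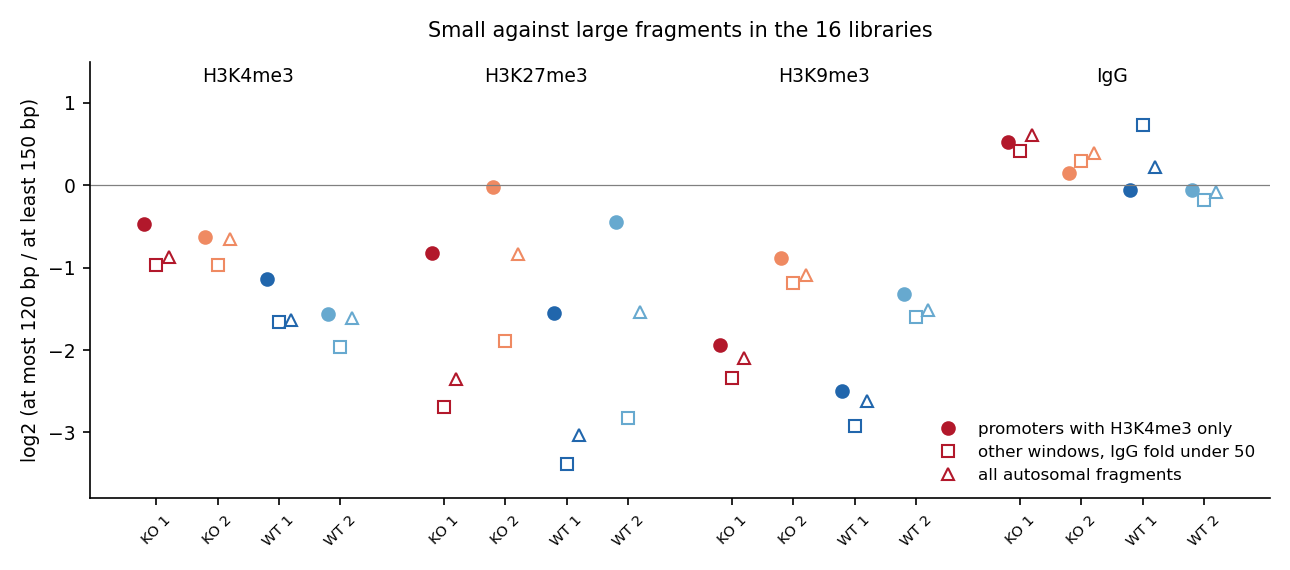
Log2 ratio of small (at most 120 bp) to large (at least 150 bp) fragments in each library, for the 4 antibodies at member windows (filled symbols). Open symbols give other windows with an IgG fold under 50 and all autosomal fragments. At members, for H3K4me3 both KO libraries (-0.47 and -0.62) lie above both WT libraries (-1.13 and -1.56). For H3K27me3 and H3K9me3 the genotypes overlap, although KO is higher within both sibling pairs.

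Per promoter the size ratio was centred on the median of each library, and limma called 0 of the 8311 members tested, against 0.0107% of 9360 windows, with an unadjusted p under 0.05 at 387 members and at 420 windows in all. The single called window was Gm10800, which is not a member and has an IgG fold of 18608. With length limits of 100 and 140 bp, 1 member (Hspa5) was called, against 0.0331% of windows, and without the first KO replicate 1 member (Gm8232), against 0.0342%. Without centring, 19 members were called, each with more small fragments in KO, against 0.288% of all tested windows called higher, and the median difference was 0.80 over members and 0.79 over all tested windows.

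Small and large fragments lay at different places around the start. At the 6322 members whose window overlaps no other, small H3K4me3 fragments were densest in the 40 bp bin centred 20 bp before the start in all 4 libraries, followed by the bin at 60 bp before it. Large fragments were densest at 140 bp after and 140 or 180 bp before the start, with a dip at the start itself. Large fragments were more frequent downstream than upstream, by ratios of 1.28 to 1.32, and small fragments by 1.04 to 1.1. For small fragments the ratio was 0.923 to 1.02 at the 4399 of these members that are CpG-rich and 1.17 to 1.33 at the 1923 others. At the 1247 members with a divergent start upstream, the ratios were 0.957 to 0.969 for large and 0.827 to 0.865 for small fragments, so that the upstream side held more. Small IgG fragments at the 6322 members, 315 to 1186 per library, were also gathered at the start, with 20.6 and 14.2% in KO and 18.6 and 18.4% in WT within 100 bp. For small H3K4me3 fragments at the same members these shares were 16.3 and 14.5% in KO and 17.4 and 13.4% in WT, and the part of the unspecific cleavage in them was not tested.

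**Figure D5:**
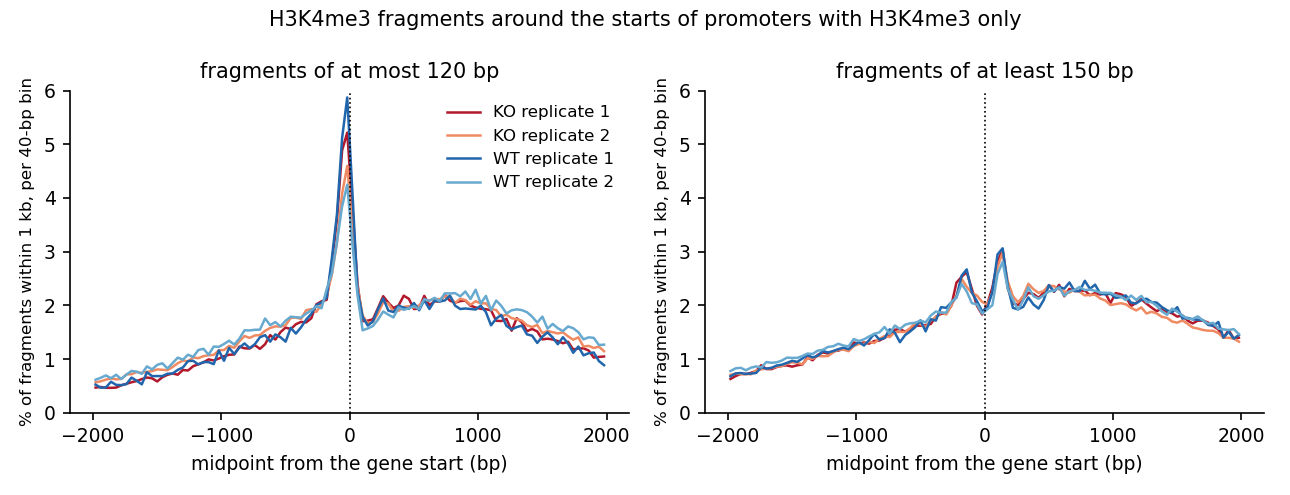
Density of small and large H3K4me3 fragments by distance of the midpoint from the gene start, in bins of 40 bp, at the 6322 members whose window overlaps no other, for 2 KO and 2 WT libraries. Small fragments are highest at 20 bp upstream of the start, and large fragments at 140 bp downstream.

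The place of the small fragments did not separate the genotypes. Of small H3K4me3 fragments in member windows, 18.6 and 16.9% in KO and 19.8 and 15.9% in WT had their midpoint within 100 bp of the start. The difference of -0.13 percentage points (exact permutation p = 1) was smaller than the SD between replicates, 1.18 in KO and 2.73 in WT. Within pairs it was -1.23 in the first and 0.965 in the second. Of large fragments, 10.6 and 10.9% in KO and 10.8 and 10% in WT lay there. The log2 size ratio was higher in KO by 0.75 within 100 bp, by 0.81 at 100 to 500 bp and by 0.81 at 500 to 1000 bp from the start (exact permutation p = 0.333 in each zone). Within 100 bp the ratio was 0.34 and 0.01 in KO and -0.25 and -0.90 in WT, so small fragments outnumbered large ones at the starts in both KO libraries and in neither WT library.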

How the data were processed

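The deposited lists give the position and length in bp of each aligned fragment, 1 list per library. Per the labels and methods, the authors aligned paired reads to mm10 with Bowtie2 (2.3.4.3 in the submitters' processing notes), and the methods state that duplicates were removed. The lists still held 42.6 to 84.4% repeats of a coordinate pair, so each was counted once per library. Gene starts came from the GENCODE vM21 annotation (mm10). Windows were tested with limma 3.58.1 (R 4.3.3) when they held at least 10 fragments over 4 libraries, or for the size ratio 10 small and 10 large fragments, with 0.5 added and each library centred on its median. P-values were Benjamini-Hochberg adjusted over all tested windows, and scripts were tested on simulated data. Values over all members were compared by two-sided exact permutation tests over libraries, and the Wilson intervals came from SciPy 1.17.1. The methods state that sibling pairs served for the replicate experiments, and libraries of the same number were taken as siblings. Same-numbered libraries deviated together (correlations of 0.28, 0.14 and 0.25 for H3K4me3, H3K27me3 and H3K9me3 over members). Alternatives included windows of 500 bp, other thresholds, every deposited fragment, members chosen in 1 WT library, other length limits, left-out replicates and a replicate block.

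The members and gene lists were chosen with earlier results of these data known. The genes named were the 8 highest members, the 2 highest members and the non-member highest in H3K27me3 of each list, the genes next to each threshold, up to 3 called members per direction by adjusted p, the 4 members highest in H3K9me3 and the 3 highest in KO H3K27me3. From these the text gives a part, and the remaining names come from the marker lists or from counts in which they stand alone.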

Additional observations from a re-analysis of the deposited data

How the results depend on the processing

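Of 150 alternatives over all results, 4 moved a value past the limit set for it and 7 turned the sign, while the other 139 did neither, 1 of them at a difference of 0 bp in modal length (members chosen in the second WT replicate alone). The KO minus WT log2 size ratio for H3K4me3 stayed between 0.66 and 1.09 in 10 alternatives, its highest value with every deposited fragment. The replicate block left the size ratio differences at 0.80 for H3K4me3, 0.58 for H3K27me3, 0.50 for H3K9me3 and 0.40 for IgG. With 1 KO and 1 WT library per replicate number the block cannot change these values, although they are counted among the 139. The exact sign-flip permutation p within pairs was 0.5 for each, the smallest that 2 pairs allow. In the window tests the block called 0 members and changed no call at members, and for H3K27me3 it called 1 window, which is not a member. Without the 16 windows of high IgG, chosen after seeing the data, the excess at members was -0.0403 and the IgG level against other windows 1.15. The modal length difference was 8 bp in windows of 500 bp either side, 1 bp in windows that overlap no other, and -3 to 2 bp with a replicate left out. The share of small fragments near the start differed by 0.223 percentage points with limits of 100 and 140 bp, and by -1.23 to 0.965 with a replicate left out. With a replicate left out, 0 to 2 members were called for H3K4me3 and 0 to 1 for the size ratio (Gm8232 without the first KO replicate, 1 of 3 windows called, 0.0342%), where a lone library is assumed to vary like the others. The size ratio test called 1 member (Hspa5) of 3 windows (0.0331%) with limits of 100 and 140 bp and 19 members of 27 windows without centring. The cause of these changes was not tested. The member count ran from 6322 to 8785. Choosing members in the second WT replicate alone left no H3K27me3 size ratio, since 1 fragment of that library already exceeds a fold of 3 and the members then hold 0 of them. With 2 libraries a group, no exact test could pass 0.05, and the IgG and the second WT H3K27me3 library are too shallow for single promoters. The first WT H3K4me3 library was also shallow there, with 16 fragments at Tssk1 and 21 at Acr.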
